A study of Mus musculus with 4 samples.

Results

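The transcripts described here belong to 10 genes of the amino acid and stress response that the transcription factor ATF4 drives, among them the enzymes of serine synthesis. They were measured by 18 of the 45101 probe sets on the arrays, chosen by manufacturer ID (Atf4, Atf3, Ddit3 and Ddit4 with 1 probe set each, Trib3, Nupr1, Asns, Psat1 and Mthfd2 with 2 each, and Phgdh with 4). The deposited table holds no gene names, and each probe set carries the gene it was chosen for. Expression was profiled in mouse cells of the C57BL/6 strain that the labels call both MEFs and murine epithelial fibroblasts, either SIN1 knock-out (SIN1 KO, ablated for the SIN1 gene) or wild type, with 2 arrays per genotype. Both were grown in DMEM with no other treatment named, and the labels add that the knock-out cells have altered metabolism. SIN1 is a subunit of mTOR complex 2, a kinase complex that phosphorylates AKT. The labels give neither the age of the embryos nor the number of lines or cultures, so p-values here reflect variation among these 4 arrays alone, which could be technical. The level of the ablated gene and of fibroblast markers was not analysed here, so neither the genotype nor the cell type labels were checked.

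When amino acids are scarce or unfolded proteins gather in the endoplasmic reticulum, kinases phosphorylate the initiation factor eIF2. General translation then slows while Atf4 mRNA is translated more, and mTOR complex 1 also raises ATF4. ATF4 binds with C/EBP proteins at composite elements and switches on genes of amino acid synthesis, transport and tRNA charging, as well as stress regulators such as Ddit3 and Trib3. Since ATF4 is controlled largely at translation, its mRNA level need not follow its activity.

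Stretches before 4 of the genes are shown because Asns and Trib3 have human counterparts with known ATF4 elements, Psat1 holds the same letters as Trib3, and Phgdh is the gene whose genotypes lay apart on every probe set. The sequences are from RefSeq, build GRCm38.p6, and cover the 150 bases before an annotated start of each gene. All 4 genes lie on the minus strand, and the stretches run 5′ to 3′ on that strand. Capitals mark letters that match TGATGNAA or TGGTGNAA, searched on both strands.
Asns (chr6:7693210-7693359): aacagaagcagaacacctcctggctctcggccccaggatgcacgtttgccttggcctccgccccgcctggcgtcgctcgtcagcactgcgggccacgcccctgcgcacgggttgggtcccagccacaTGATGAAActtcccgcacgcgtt
Trib3 (chr2:152344061-152344210): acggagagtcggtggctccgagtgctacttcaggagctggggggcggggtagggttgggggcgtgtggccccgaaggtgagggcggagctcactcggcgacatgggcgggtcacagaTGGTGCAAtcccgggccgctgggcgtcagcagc
Psat1 (chr19:15925060-15925209): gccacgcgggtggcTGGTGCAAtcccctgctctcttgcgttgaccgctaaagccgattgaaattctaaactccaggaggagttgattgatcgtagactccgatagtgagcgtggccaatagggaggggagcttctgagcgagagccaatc
Phgdh (chr3:98339970-98340119): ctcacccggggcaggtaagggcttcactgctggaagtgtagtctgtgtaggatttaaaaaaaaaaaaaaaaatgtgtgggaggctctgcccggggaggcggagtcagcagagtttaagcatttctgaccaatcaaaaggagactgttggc
All 10 genes were matched by symbol to RefSeq windows of 250 bases before to 50 bases after the start, with 2 windows for Psat1. The Psat1 stretch shown was picked from the window that holds a match, and its other window holds none. TGATGNAA was present in 4 of the 10 genes (Atf3, Trib3, Nupr1 and Asns) and in 4 of their 11 windows, against 3.97% of all 32851 windows. TGGTGNAA was present in 2 of the 10 genes (Trib3 and Psat1) and in 2 of the 11 windows, against 3.23% of all windows. It was added after the promoters had been read, and the motifs do not overlap in any member. No match to either was found in the windows of Atf4, Ddit3, Ddit4, Phgdh and Mthfd2. A match is a description of letters and not a binding site, and a missing match says only that these letters are not in the window. Since the genes were chosen as part of the ATF4 response, these counts do not test a link between the motifs and that response.

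The values are log2 RMA values, in which 1 unit is a 2-fold step, and levels are compared only within a probe set. The background level of an array was taken as the highest of its 27 Bacillus subtilis control probe sets, 3.75 and 4.27 on the SIN1 KO arrays and 4.05 and 3.91 on the wild type arrays. Of the 18 probe sets, 16 were above it on all 4 arrays, and 17 were at or above the median level of all probe sets, 4.31. The arrays did not group by genotype: SIN1 KO 1 and wild type 1 correlated most closely (r = 0.971 across 45037 probe sets), and SIN1 KO 2 and wild type 2 were the farthest apart (r = 0.904). Since 1 array could decide a difference, differences without single arrays are given where they turn its direction or its size. In cell populations such as these, fewer cells that express a gene and less of its RNA per cell cannot be told apart.

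**Figure D1:**
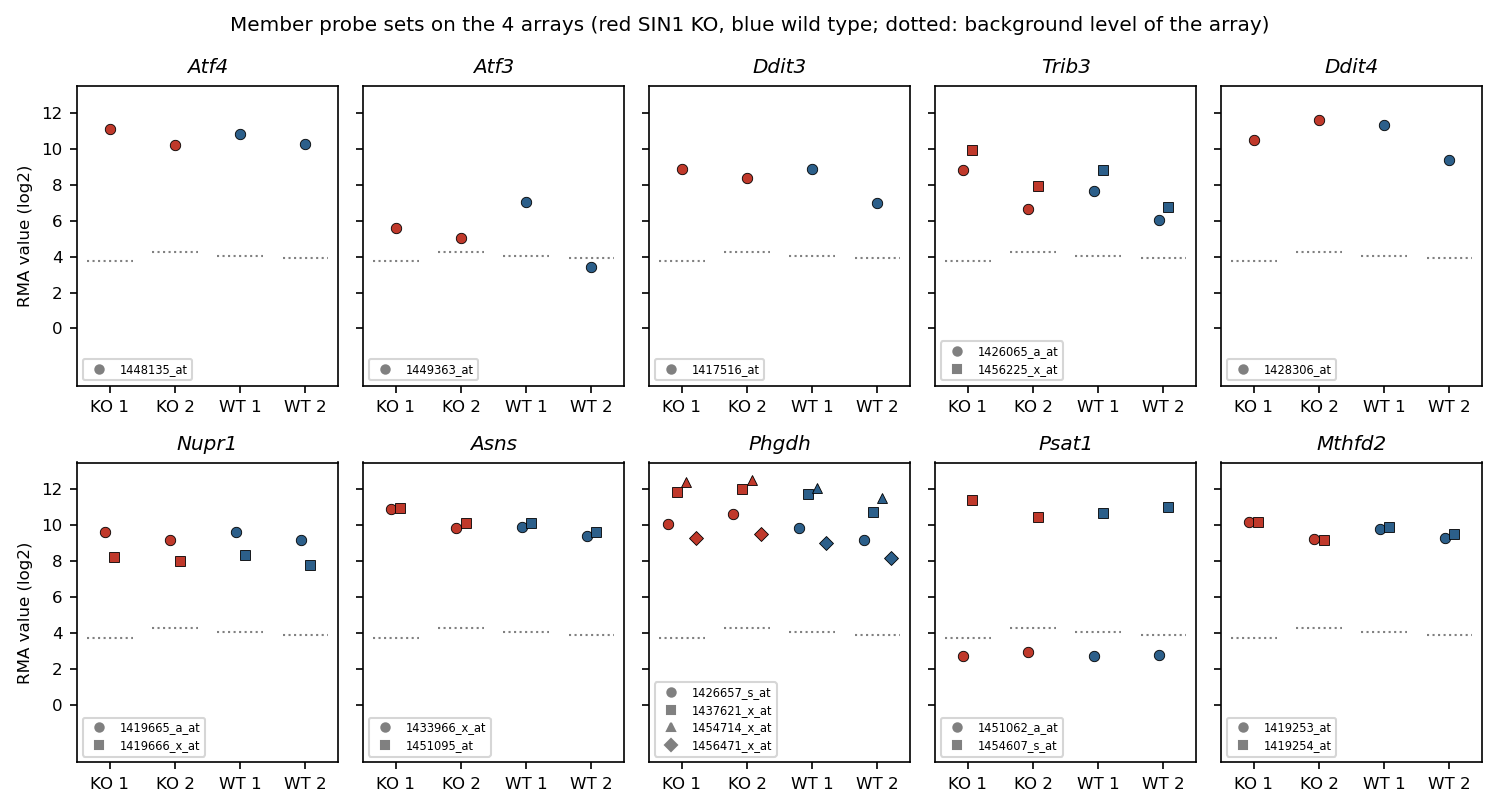
RMA values (log2, vertical axis) of the 18 probe sets on each array, 1 panel per gene, with SIN1 KO in red and wild type in blue; symbols stand for probe sets and dotted lines for the background level of the array. On all 4 Phgdh probe sets the red points lie above the blue ones, and Psat1 probe set 1451062_A_AT stays under the background line throughout.

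SIN1 KO cells were set against wild type cells to ask whether transcripts of the ATF4 response depend on SIN1. None of the 18 passed limma's test with Benjamini-Hochberg adjustment over all 45037 probe sets, in which 0% of all probe sets passed (adjusted p of the members between 0.82 and 1). At an unadjusted threshold of 0.05, 0 of the 18 were higher and 0 lower in SIN1 KO, against 3% and 2.57% of all probe sets. Both SIN1 KO arrays were above both wild type arrays in 5 of the 18, against 20.4% of all probe sets. Both were below in 0 of the 18, against 14.9% of all. The 5 were the 4 probe sets of Phgdh and 1 of Asns. With the probe set of highest mean standing for each gene, both were above in 2 of the 10 genes and below in 0. These counts rest on few arrays, and with 3 arrays genotypes lie apart more often in all probe sets too. Without SIN1 KO replicate 2, 13 of the 18 were above, against 29.9% of all probe sets, and without wild type replicate 1 also 13, against 43.2% of all. Without SIN1 KO replicate 1, 7 were above, against 43.7% of all, and 4 below, against 31.4% of all. Without wild type replicate 2, 5 were above, against 30.6% of all, and 3 below, against 28% of all. The median difference over the 18 was 0.67 on the log2 scale, against 0.04 over all probe sets, and it dropped to 0.14 without SIN1 KO replicate 1 and to 0.10 without wild type replicate 2. Phgdh counts 4 times in this median, so it is no median over genes. With the probe set of highest mean for each gene, differences were 0.67 to 1.13 for Ddit3, Trib3, Ddit4, Asns and Phgdh. They were -0.019 to 0.10 for Atf4, Atf3, Nupr1, Psat1 and Mthfd2. With 2 arrays against 2, an exact two-sided permutation test cannot give a p under 0.333.

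Phgdh, the enzyme that takes 3-phosphoglycerate out of glycolysis in the first and committed step of serine synthesis, was higher on both SIN1 KO arrays at each of its probe sets. On probe set 1454714_X_AT it measured 12.41 and 12.54 in SIN1 KO, against 12.10 and 11.52 in wild type. On 1437621_X_AT it measured 11.85 and 12.05 in SIN1 KO, against 11.73 and 10.75 in wild type. On both, the SIN1 KO arrays lay close together and wild type 2 was the lowest array.
On 1426657_S_AT the values were 10.07 and 10.65 in SIN1 KO, against 9.83 and 9.16 in wild type. On 1456471_X_AT they were 9.31 and 9.53 in SIN1 KO, against 9.01 and 8.17 in wild type. The genotypes thus did not overlap on any of the 4 probe sets, but wild type 1 was 0.31, 0.12, 0.24 and 0.30 below the nearer SIN1 KO array on 1454714_X_AT, 1437621_X_AT, 1426657_S_AT and 1456471_X_AT.
The largest of the 4 differences was 0.86 at 1426657_S_AT (SE 0.38, 95% interval -0.16 to 1.89, limma adjusted p 0.82), a 1.82-fold difference with means of 10.36 ± 0.41 in SIN1 KO and 9.50 ± 0.47 in wild type (SD, n = 2). The smallest was 0.67 at 1454714_X_AT (SE 0.31, 95% interval -0.18 to 1.51, limma adjusted p 0.82), with means of 12.47 ± 0.10 in SIN1 KO and 11.81 ± 0.41 in wild type (SD, n = 2). All 4 intervals include 0, so no change of Phgdh passed the test.
Without wild type replicate 2 the 4 differences were between 0.22 and 0.53, and without wild type replicate 1 between 0.96 and 1.25. They stayed apart with cyclic loess. They also did with median centring and with scaling to hybridisation controls, but neither could have brought them together. The array medians lay between 4.23 and 4.32, a range smaller than each gap. The hybridisation control means were lower on both SIN1 KO arrays (11.41 and 11.54) than on both wild type arrays (11.85 and 11.73), so that scaling only widened the gaps. The 4 probe sets measure 1 gene in the same 4 RNA samples and are not independent. All of them carry the suffix s or x, the manufacturer's marks for probe sets with probes that can also match other transcripts. This suffix is found on 10.1% of all tested probe sets, and whether other transcripts add to the signal was not tested.

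Asns, which makes asparagine from aspartate and glutamine, lay apart between the genotypes on 1 of its 2 probe sets. Probe set 1451095_AT measured 10.96 and 10.14 in SIN1 KO, against 10.11 and 9.63 in wild type, and SIN1 KO 2 was 0.034 above wild type 1. Probe set 1433966_X_AT measured 10.89 and 9.83 in SIN1 KO, against 9.93 and 9.40 in wild type, and there SIN1 KO 2 was below wild type 1. SIN1 KO 1 was the highest array and wild type 2 the lowest on both.
The differences were 0.68 (SE 0.40, 95% interval -0.39 to 1.76) for 1451095_AT and 0.70 (SE 0.47, 95% interval -0.56 to 1.95) for 1433966_X_AT, both with a limma adjusted p of 0.82. Without SIN1 KO replicate 1 they were 0.27 and 0.16. Asns has a TGATGNAA match, whose first letter lies at base -23 from its start. Atf3, Trib3 and Nupr1 hold one as well and Phgdh holds none, and a link of the match to the differences was not tested.

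The other enzymes of the serine and one-carbon branch, Psat1 and Mthfd2, overlapped between the genotypes on each of their probe sets. Psat1, the aminotransferase that follows Phgdh in serine synthesis, measured 11.42 and 10.47 on 1454607_S_AT in SIN1 KO, against 10.69 and 11.01 in wild type. The SIN1 KO arrays lay outside the wild type arrays on either side, and the difference was 0.09 (SE 0.42, 95% interval -1.02 to 1.21, limma adjusted p 0.97). It was -0.38 without SIN1 KO replicate 1 and -0.067 without wild type replicate 1. Its other probe set, 1451062_A_AT, was at 2.72 and 2.94 in SIN1 KO, against 2.74 and 2.78 in wild type, and was not above background on any array. Psat1 was therefore measured above background by 1454607_S_AT alone, which carries the suffix s.
Mthfd2, the mitochondrial enzyme that oxidises the folate-bound carbon unit derived from serine, measured 10.20 and 9.21 on 1419253_AT in SIN1 KO, against 9.82 and 9.29 in wild type. On 1419254_AT it measured 10.19 and 9.19 in SIN1 KO, against 9.89 and 9.53 in wild type. On both probe sets SIN1 KO 1 was the highest array and SIN1 KO 2 the lowest, so the genotypes overlapped fully. The differences were 0.15 (SE 0.45, limma adjusted p 0.953) and -0.019 (SE 0.43, limma adjusted p 0.997), and the second was positive with median centring (0.013) and with scaling to hybridisation controls (0.30). Without SIN1 KO replicate 1 they were -0.34 and -0.52, and without SIN1 KO replicate 2 they were 0.64 and 0.48. Their 95% intervals, -1.05 to 1.35 and -1.18 to 1.14, still allow differences of 2-fold in either direction.

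**Figure D2:**
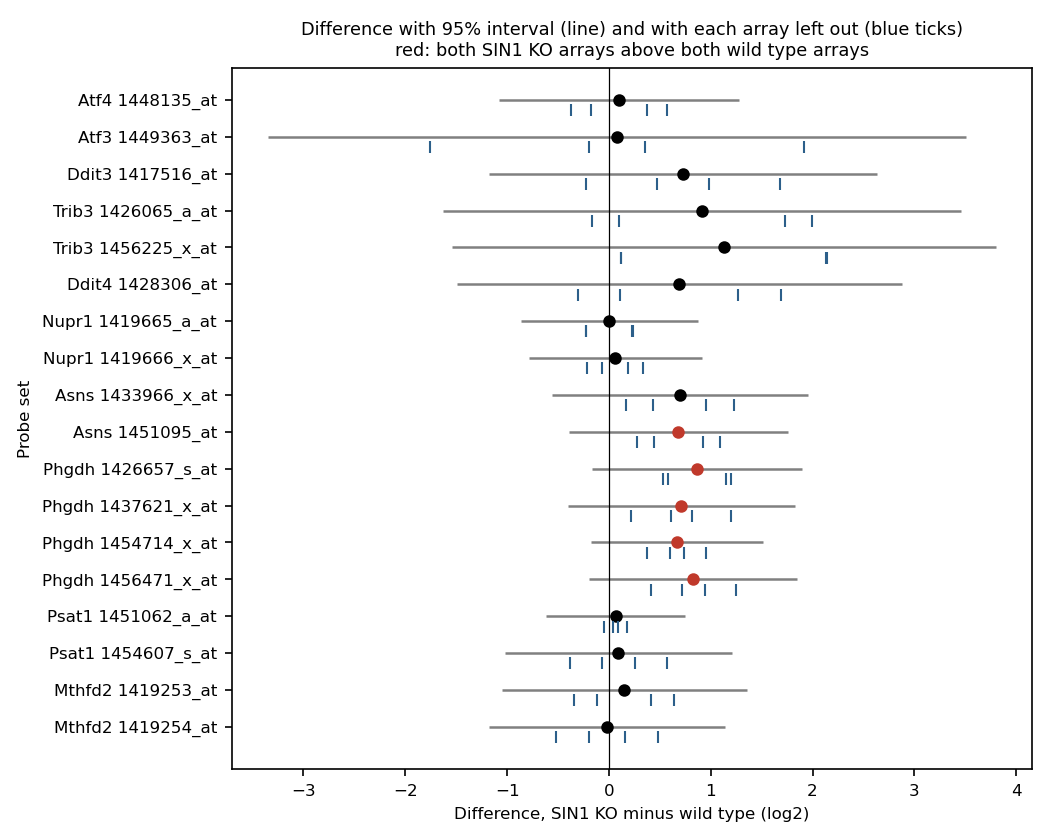
Difference of SIN1 KO minus wild type (log2, horizontal axis) for each probe set, with points for the fitted difference, grey lines for its 95% interval and blue ticks for the difference without each array in turn; red points mark probe sets whose SIN1 KO arrays are both above both wild type arrays. Every interval crosses 0, and all ticks of Phgdh and Asns lie above 0, between 0.16 and 1.25. For the red points this follows from the separation of the arrays, since leaving out an array could not turn their direction. All ticks of Trib3 1456225_X_AT also lie above 0, between 0.11 and 2.14.

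Of the regulators, Atf4 itself overlapped between the genotypes. It measured 11.13 and 10.19 in SIN1 KO, against 10.83 and 10.29 in wild type, with SIN1 KO 1 the highest and SIN1 KO 2 the lowest array. The difference was 0.10 (SE 0.44, 95% interval -1.08 to 1.28, limma adjusted p 0.97), and it was -0.37 without SIN1 KO replicate 1 and -0.17 without wild type replicate 2. This order of the arrays was also that of both Mthfd2 probe sets.
Atf3, a stress-induced factor of the same family, varied most among the members. It measured 5.58 and 5.03 in SIN1 KO, against 7.07 and 3.40 in wild type, so that both SIN1 KO arrays lay between the wild type arrays. Wild type 2 was not above its background level of 3.91. The difference of 0.08 (SE 1.28, limma adjusted p 0.996) was 1.91 without wild type replicate 1, -1.76 without wild type replicate 2 and -0.20 without SIN1 KO replicate 1.
Ddit3, which encodes the C/EBP family protein CHOP of the unfolded protein response, measured 8.90 and 8.39 in SIN1 KO, against 8.87 and 6.96 in wild type. A low wild type 2 set it apart, while the remaining arrays lay close together. The difference of 0.73 (SE 0.71, limma adjusted p 0.84) was -0.23 without wild type replicate 2 and 1.68 without wild type replicate 1.

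Trib3, a pseudokinase that ATF4 and CHOP induce and that has been reported to bind AKT, had the largest differences among the members but also large spread. Probe set 1456225_X_AT measured 9.93 and 7.91 in SIN1 KO, against 8.81 and 6.78 in wild type. Probe set 1426065_A_AT measured 8.83 and 6.66 in SIN1 KO, against 7.64 and 6.02 in wild type. Both ran in the same order, with SIN1 KO 1 highest, wild type 1 next, then SIN1 KO 2 and wild type 2.
The differences were 1.13 (SE 1.00, 95% interval -1.55 to 3.80, limma adjusted p 0.827) and 0.91 (SE 0.95, 95% interval -1.63 to 3.46, limma adjusted p 0.848). On 1456225_X_AT the arrays of a genotype differed from each other by 2.02 in SIN1 KO and by 2.03 in wild type, more than the genotypes did. Without SIN1 KO replicate 1 the differences were 0.12 and -0.17, and without wild type replicate 2 they were 0.11 and 0.10. Without wild type replicate 1 they were 2.14 and 1.73, and without SIN1 KO replicate 2 they were 2.13 and 2.00.
Ddit4, an inhibitor of mTOR complex 1 that glucocorticoids, hypoxia and stress induce, measured 10.47 and 11.62 in SIN1 KO, against 11.35 and 9.36 in wild type. Here SIN1 KO 1 was below wild type 1 while SIN1 KO 2 was the highest array. Its difference of 0.69 (SE 0.81, limma adjusted p 0.864) was -0.31 without wild type replicate 2, 0.11 without SIN1 KO replicate 2, 1.27 without SIN1 KO replicate 1 and 1.69 without wild type replicate 1.
Nupr1, a small stress-induced chromatin protein, differed little between the genotype means. Probe set 1419665_A_AT measured 9.65 and 9.20 in SIN1 KO, against 9.65 and 9.20 in wild type, a difference of 0.0035 (SE 0.32, 95% interval -0.87 to 0.87, limma adjusted p 1) that was -0.049 under cyclic loess. Probe set 1419666_X_AT measured 8.25 and 7.99 in SIN1 KO, against 8.33 and 7.78 in wild type, a difference of 0.06 (SE 0.32, 95% interval -0.79 to 0.92, limma adjusted p 0.975). Without wild type replicate 2 the differences were -0.22 and -0.21, and without SIN1 KO replicate 1 they were -0.22 and -0.064. On both, number 1 arrays were above number 2 arrays in each genotype.

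The probe sets of 1 gene gave like differences where both were above background. They differed among themselves by 0.21 for Trib3, by 0.01 for Asns, by 0.20 for Phgdh, by 0.06 for Nupr1 and by 0.17 for Mthfd2, as the difference between the highest and the lowest estimate of a gene. The spread between arrays was larger. In 16 of the 18 probe sets, 1 genotype's own arrays lay farther apart than the genotype means, against 77.6% of all probe sets, and the exceptions were the Phgdh probe sets 1426657_S_AT and 1454714_X_AT.

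The array that most often stood apart was wild type 2. It gave the lowest value in 13 of the 18 probe sets, against 37.3% of all 45037, and the highest in 0, against 28.3% of all. The 13 belonged to 7 genes with every probe set lowest there: Atf3, Ddit3, Trib3, Ddit4, Nupr1, Asns and Phgdh. SIN1 KO 1 gave the highest value in 9 of the 18, against 16.2% of all, and the lowest in 1, the Psat1 probe set at background, against 20.4% of all. The wild type arrays differed among themselves by a median of 0.57 over the 18 (wild type 1 minus wild type 2, higher in 16), against 0.07 over all probe sets. The SIN1 KO arrays differed by a median of 0.53 (SIN1 KO 1 minus SIN1 KO 2, higher in 12), against -0.09 over all probe sets. The number 1 array was thus the higher one in most members in both genotypes. Over all probe sets, wild type 1 was above wild type 2 in 54.9%, and SIN1 KO 1 above SIN1 KO 2 in 43.1%.

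**Figure D3:**
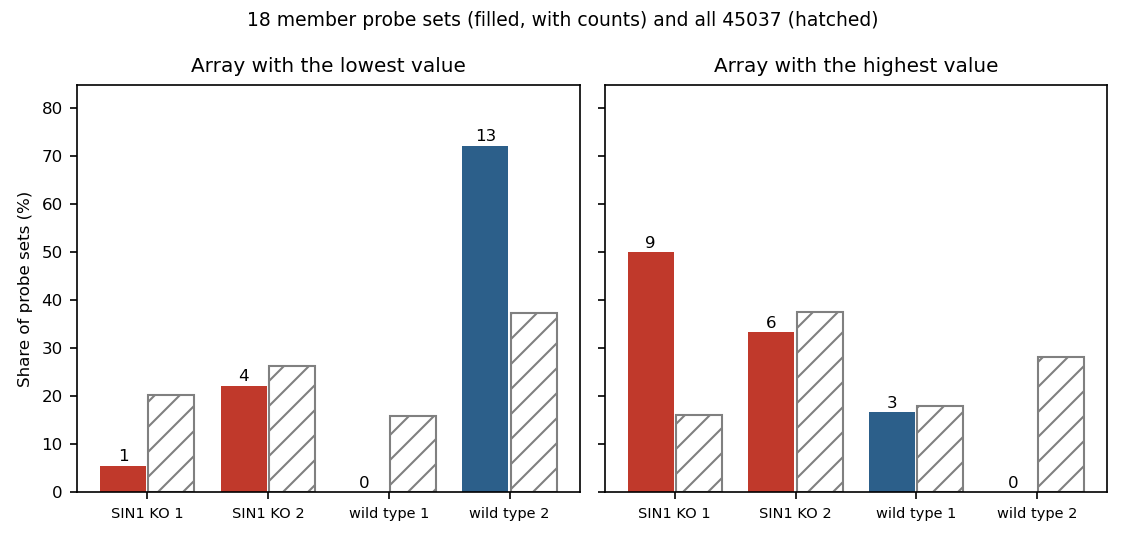
Share of probe sets (percent, vertical axis, from 0) whose lowest (left) or highest (right) value falls on each array, for the 18 members (filled bars, red SIN1 KO and blue wild type, with counts above) and for all 45037 probe sets (hatched). Wild type 2 holds the lowest value in 13 members, and SIN1 KO 1 the highest in 9.

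The genotype difference was also taken within each array number, as single values with no error. SIN1 KO was higher than wild type within both numbers in 9 of the 18 probe sets, against 25.6% of all, and lower within both in 0, against 20% of all. The 9 covered every probe set of 4 genes, Ddit3, Trib3, Asns and Phgdh. They split by size. For Phgdh the difference was 0.12 to 0.31 between the number 1 arrays and 1.03 to 1.49 between the number 2 arrays. For Asns it was 0.85 and 0.97 between the number 1 arrays and 0.52 and 0.43 between the number 2 arrays, at 1451095_AT and 1433966_X_AT. For Trib3 it was 1.12 and 1.19 between the number 1 arrays and 1.13 and 0.64 between the number 2 arrays, at 1456225_X_AT and 1426065_A_AT.
For Ddit3 it was 0.03 and 1.43. Ddit4 and Atf3 ran in opposite directions, with -0.88 and -1.48 between the number 1 arrays and 2.26 and 1.64 between the number 2 arrays. The labels do not say that arrays of the same number were handled together, and their deviations ran in opposite directions (r = -0.415 across probe sets). Taken across numbers, SIN1 KO 2 was above wild type 1 in 7 of the 18 and below in 11, against 54.2% of all above. Trib3 (-0.89 and -0.98), Ddit3 (-0.48) and Asns 1433966_X_AT (-0.10) were among those below. SIN1 KO 1 was above wild type 2 in 17 of the 18, against 52.1% of all.

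**Figure D4:**
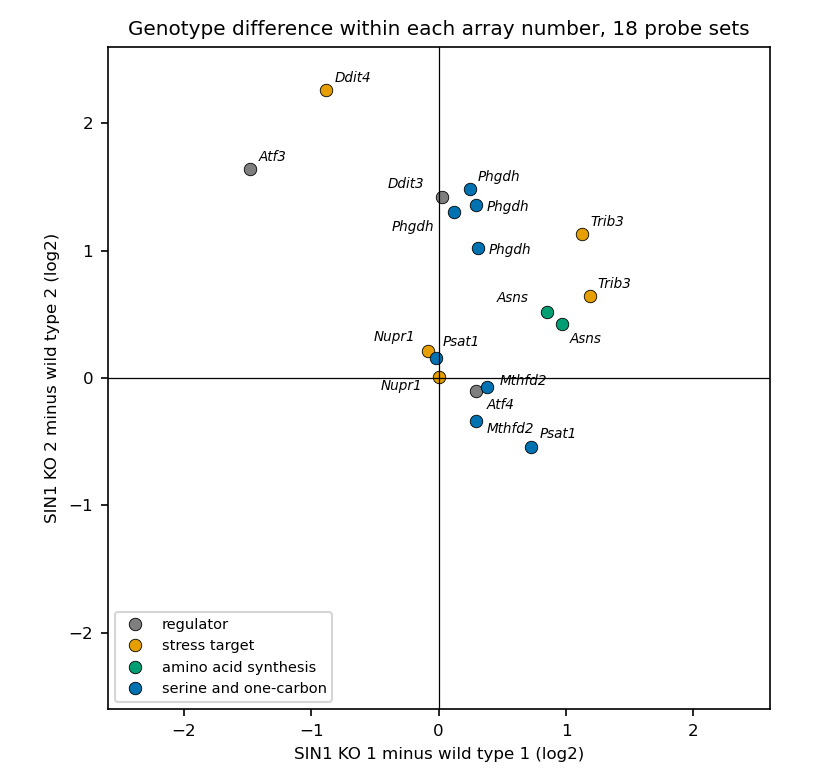
Difference of SIN1 KO minus wild type (log2) between the number 1 arrays (horizontal axis) and between the number 2 arrays (vertical axis), 1 point per probe set, coloured by role. Phgdh, Asns, Trib3 and Ddit3 lie in the upper right, Ddit4 and Atf3 in the upper left, and no probe set lies in the lower left. The labels do not pair arrays by number, and the opposite pairing is not drawn.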

How the data were processed

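Expression in SIN1 KO and wild type fibroblasts was measured on 4 arrays, 2 per genotype, labelled with biotin. The authors deposited log2 values made with RMA, per the submitters' processing notes. RMA is a background correction, a normalization across arrays and a summary of the probes of each probe set; its settings and version are not given in sources used here. The log2 scale was read from the range of the deposited values, 0.80 to 14.17. No further normalization was applied and no column was left unused. Leaving out 64 control probe sets, the genotypes were compared over 45037 probe sets in R 4.3.3 by limma 3.58.1 (lmFit and eBayes, no trend) and adjusted after Benjamini-Hochberg (threshold 0.05). Residual degrees of freedom were 2, to which the prior added 2.38, and the number of arrays limits the precision (median SE 0.33). The fit was run on simulated data to check its estimates and its false calls. How often it would call a change of the size seen in the members is not given here. Every probe set of the 10 genes is named. The members, lists and tests were chosen with earlier results of these data known. The planned list of other pathway genes, the cell type markers and the ablated gene were not analysed here, since no table used here pairs probe sets with genes. Promoter windows came from RefSeq by symbol. The alternatives tried were 3 scalings, a filter at the median level, 2 variance priors, the replicate number as a block and leaving out each array. Figures were drawn with matplotlib 3.10.9.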

Additional observations from a re-analysis of the deposited data

How the results depend on the processing

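No member passed the adjusted threshold under any alternative. Over all probe sets the adjusted threshold gave 5 higher under the filter at the median level, none of them members, and 0 otherwise. Members higher at the unadjusted threshold were 0 as deposited (3% of all probe sets), 4 when scaled to the hybridisation controls (11.9%), 1 with the trended prior (2.92%), 1 with the replicate block (1.47%), 2 with a block for the crossed pairing (6.44%) and 0 to 4 on leaving out an array (4 without wild type replicate 1, 3.38% of all). The crossed pairing was added after the data were seen, since deviations of same-numbered arrays ran in opposite directions (r = -0.415 across probe sets), and the numbers were not taken as pairs. Members lower were 0 to 1 (1 without wild type replicate 2, 1.65% of all). Both SIN1 KO arrays were above in 5 members under cyclic loess (19.2% of all probe sets), 6 under median centring (23.9%) and 7 of 18 when scaled to the hybridisation controls (51.4%), which moved the median of all probe sets from 0.04 to 0.36. Leaving out an array, which loosens this count, gave 5 to 13 above (29.9% to 43.7% of all) and 0 to 4 below (28% to 33.2% of all). Without the probe sets of suffix s or x, an alternative added later, 1 of the 10 left was above (20% of the 40508 probe sets left). Against the 95th percentile of the controls, 17 members were above background on all arrays, and 16 against their highest value. Of 197 alternative differences of members, 176 kept their direction and 21 reversed, 18 of these on leaving out an array. The filter, the 2 variance priors and the replicate block leave a fitted difference as it is, so they could not reverse any. Nor could leaving out an array reverse the 5 members whose SIN1 KO arrays were both above. All these differences are among the 176, which is therefore no measure of stability. The differences without 1 array ran from -0.37 to 0.57 for Atf4, -1.76 to 1.91 for Atf3, -0.23 to 1.68 for Ddit3, -0.17 to 2.00 for Trib3 1426065_A_AT, 0.11 to 2.14 for Trib3 1456225_X_AT, -0.31 to 1.69 for Ddit4, -0.22 to 0.23 for Nupr1 1419665_A_AT and -0.21 to 0.34 for Nupr1 1419666_X_AT. They ran from -0.043 to 0.18 for Psat1 1451062_A_AT, -0.38 to 0.57 for Psat1 1454607_S_AT, -0.34 to 0.64 for Mthfd2 1419253_AT and -0.52 to 0.48 for Mthfd2 1419254_AT. Nupr1 1419665_A_AT was -0.049 under cyclic loess, and Mthfd2 1419254_AT 0.013 under median centring and 0.30 when scaled to the hybridisation controls. The cause of these changes was not tested beyond the fewer arrays. The filter left out Psat1 1451062_A_AT. Where 1 array of a genotype remained, its variance was borrowed from the arrays of the other.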
